A study of Mus musculus with 12 samples.

Results

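The genes described here are 48 genes of collagen, other extracellular matrix and stromal cells, read on 12 Mouse Gene 2.0 ST arrays of TSEC, an immortalized line of mouse liver sinusoidal endothelial cells (LSEC). Of these, 44 were measured, out of 13556 genes in all with a transcript annotated to them alone, and the transcript of highest mean over the 12 arrays stood for each gene. No deposited transcript carries the symbol of Lum, Fbn1 or Postn, alone or shared, and the transcripts of Loxl2 share their annotation with Gm21451. These 4 genes were therefore not analysed here. Only transcripts above a log2 value of 4.5 on at least 1 array were deposited, and 10362 of them carry no symbol. Whether Lum, Fbn1 and Postn were below 4.5 or lack a symbol was not tested. The symbols were listed by name with earlier results of these arrays in view, and which values brought each of them in is not recorded. The counts over the list below are therefore descriptions, set beside the same share of all 26076 transcripts of the table, and are no independent evidence. TSEC are 1 cell line in culture, and the methods describe no hepatocytes or stellate cells added to it, which limits it as a model of the sinusoid. The purity of the cultures was not tested.

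The 12 arrays fall into 4 treatments of 3 arrays. Media stands for cells in medium alone. FFA stands for cells given the free fatty acids oleic acid (0.66 mM) and palmitic acid (0.33 mM), INT-767 for cells given 30 μM of this compound, which activates the nuclear receptor FXR and the membrane receptor TGR5 for bile acids, and FFA+INT-767 for cells given all of them, each for 8 h by the labels. The methods of the study give another fatty acid dose and a longer time, and which applies is not known. Each treatment has replicate numbers 1, 2 and 3, which the labels call biological and the methods call wells, so that p-values cover only the variation among these arrays, part or all of which may be technical. What a replicate number shares (a day, a passage or a plate) is not stated.

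The extracellular matrix of the liver is made of collagens, laminins, proteoglycans and glycoproteins that cells secrete and assemble around themselves. Fibrillar collagens form the fibres of scar tissue, type IV collagen and laminins form the basement membrane, and lysyl oxidases cross-link the fibres, while matrix metalloproteinases cleave them and the TIMP proteins inhibit these proteases. In the liver the main producers of fibrillar collagen are hepatic stellate cells that have turned into myofibroblasts, whose usual markers are smooth muscle actin and the PDGF receptors. Healthy LSEC are fenestrated and lie on a sparse matrix with no continuous basement membrane.

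For orientation, the 250 bases before the start of 5 genes are shown. They come from 12 measured genes with 1 listed promoter and upstream bases outside every other gene of the RefSeq table. Genes on a chromosome that was set aside were not considered. Among the 12, they are the 4 with the largest difference between replicate number 1 and the other numbers, and Vim. Vim has the smallest difference at a mean over 6. Genes outside the 12, such as Pdgfra and Dcn, differed more than the 4. Sequences are from RefSeq, build GRCm38.p6, written 5′ to 3′ on the strand of the gene, with matches on either strand to the TATA box (TATAAA), the CCAAT box, the GC box (GGGCGG) and the AP-1 site (TGANTCA) in capitals.
Col8a1, chr16:57754738-57754987, minus strand: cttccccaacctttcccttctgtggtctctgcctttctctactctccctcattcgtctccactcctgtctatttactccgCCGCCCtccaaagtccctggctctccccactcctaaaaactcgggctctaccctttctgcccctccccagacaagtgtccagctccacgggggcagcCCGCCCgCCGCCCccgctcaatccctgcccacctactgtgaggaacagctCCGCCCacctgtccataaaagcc
Col3a1, chr1:45311288-45311537, plus strand: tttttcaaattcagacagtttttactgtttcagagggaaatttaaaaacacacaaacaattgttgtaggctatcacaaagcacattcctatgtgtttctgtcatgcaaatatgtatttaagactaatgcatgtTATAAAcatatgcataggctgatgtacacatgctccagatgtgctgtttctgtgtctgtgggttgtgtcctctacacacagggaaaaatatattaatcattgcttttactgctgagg
Des, chr1:75360042-75360291, plus strand: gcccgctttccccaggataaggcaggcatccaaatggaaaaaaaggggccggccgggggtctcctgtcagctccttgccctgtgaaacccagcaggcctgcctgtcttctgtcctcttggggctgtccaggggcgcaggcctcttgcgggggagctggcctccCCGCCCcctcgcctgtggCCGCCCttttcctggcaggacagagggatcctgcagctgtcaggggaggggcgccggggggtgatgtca
Col6a1, chr10:76726045-76726294, minus strand: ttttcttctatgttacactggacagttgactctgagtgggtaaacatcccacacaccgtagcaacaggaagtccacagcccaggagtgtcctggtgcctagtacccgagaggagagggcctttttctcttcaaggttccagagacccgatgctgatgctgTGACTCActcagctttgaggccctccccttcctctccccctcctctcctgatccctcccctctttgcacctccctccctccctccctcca
Vim, chr2:13574061-13574310, plus strand: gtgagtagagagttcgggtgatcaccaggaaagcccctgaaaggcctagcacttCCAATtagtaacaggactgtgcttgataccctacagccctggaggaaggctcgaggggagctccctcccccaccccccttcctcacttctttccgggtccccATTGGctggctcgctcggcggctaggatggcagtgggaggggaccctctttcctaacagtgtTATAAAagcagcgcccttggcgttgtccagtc
Col8a1 holds 4 matches to the GC box and Des holds 2, Col3a1 holds a TATA box, Col6a1 holds an AP-1 site, and Vim holds a TATA box and 2 matches to the CCAAT box. The TATA box letters are found in the same window of 12.4% of 32851 promoters, the CCAAT box in 33.8%, the GC box in 32.7% and the AP-1 site in 6.75%. Of 25 measured genes of the list with 1 listed promoter, 4, 11, 14 and 2 hold them. A match is a run of letters and shows no binding.

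The deposited values are log2 expression values, and every transcript of the table lies above 4.5 on at least 1 of the 12 arrays, the rule of the study for a present gene. Array medians were 5.76 to 5.87. Of the 44 genes, 35 were above 4.5 on all 12 arrays, as were 68.9% of all transcripts. Vim, which encodes the intermediate filament protein vimentin, lay between 12.44 and 12.88, the proteoglycan gene Bgn between 11.79 and 12.86, and the fibronectin gene Fn1 between 11.71 and 12.47. Sparc, a collagen-binding glycoprotein, lay between 10.91 and 11.68, and Timp2 between 10.84 and 11.34. Near the detection limit were Col5a3 (highest value 4.56), the lysyl oxidase gene Loxl1 (4.73), the thrombospondin gene Thbs2 (5.18), the stromelysin gene Mmp3 (4.94) and Thy1, a surface protein of fibroblasts (4.81). Loxl1, Thbs2 and Mmp3 were above 4.5 on replicate 1 arrays alone, so they are in the table only through the number in which they were high.

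Of the usual endothelial markers, 8 of 19 were measured and 4 of these stayed below 5 on every array. Kdr, the main VEGF receptor, lay between 4.0 and 4.91, whereas Flt1, another VEGF receptor, lay between 7.09 and 8.24. Pecam1, Cdh5 and Tek were not analysed here, and 2 of 9 sinusoidal markers were measured, Mrc1 (4.14 to 4.65) and Gata4 (6.30 to 6.86). Of 10 stellate cell markers, 4 were measured and 2 of them stayed below 5, among the others Cygb, a globin of stellate cells, at 7.21 to 8.89. Among the measured endothelial markers, Cd34 lay between 6.02 and 10.20, Esam between 4.69 and 5.99 and Egfl7 between 5.10 and 5.58. Few defining markers of an endothelial line were thus measured here, and the identity of the line was not tested. Only transcripts above 4.5 on at least 1 array were deposited. Whether the markers not measured were below that level or lack a symbol of their own was not tested. For that identity the paper cites an endothelial genetic signature of TSEC and their functions, among them uptake of acetylated LDL, tube formation and migration. It adds that TSEC have few fenestrae in sieve plates and an activated angiogenic phenotype, and proposes that they may not represent resting cells.

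**Figure D1:**
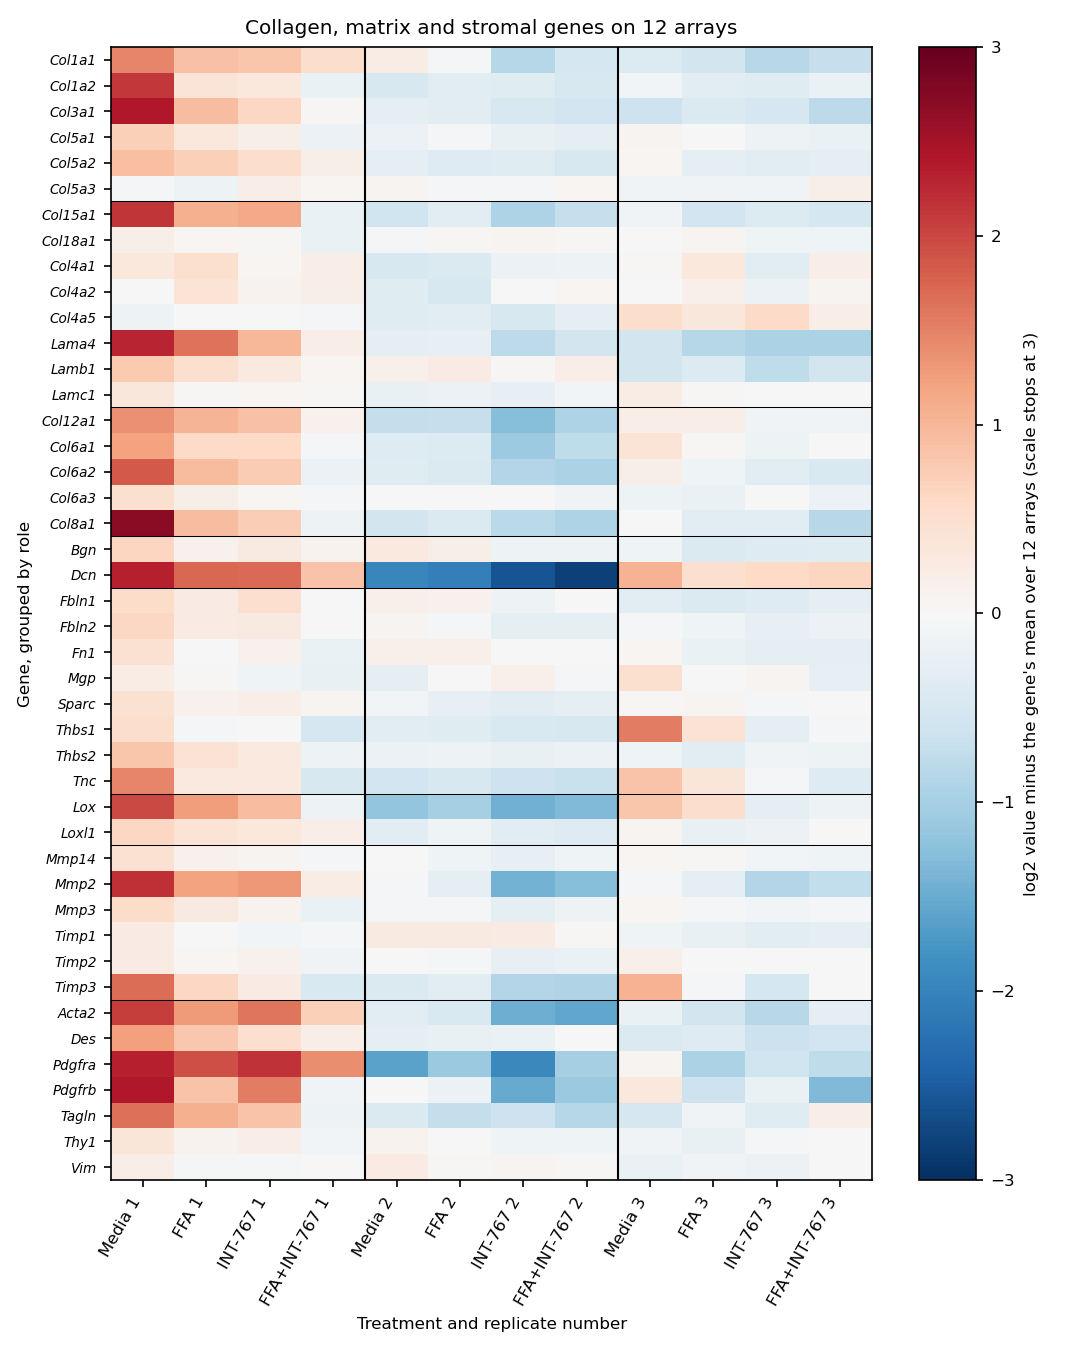
Each row is 1 of 44 genes, grouped by role, and each column 1 of 12 arrays, ordered by replicate number and then treatment. The colour gives the log2 value minus the mean of the gene over the 12 arrays, and the Media replicate 1 column holds the highest value of 36 genes.

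The clearest pattern in the genes followed the replicate number. In Media replicate 1, 36 of the 44 genes had their highest value, where 12.4% of all transcripts did. Over 12 arrays with the 4 treatment means in the model, limma's F test for the replicate number called 30 of 44 genes at an adjusted p under 0.05, against 20.4% of all transcripts. Compared with the mean of the other numbers, replicate 1 was higher in 25 genes and lower in 0, where 6.57% of all transcripts were called higher and 7.83% lower. The median difference was 0.55 on the log2 scale over the genes and -0.019 over all transcripts. Replicate 2 was lower in 17 genes and higher in 1 (background 4.39% lower, 5.69% higher), with a median of -0.45, and replicate 3 was lower in 7 and higher in 2 (background 4.80% lower, 5.22% higher), with a median of -0.20. Without Loxl1, Thbs2 and Mmp3, the F test called 28 of 41 genes, against 21.6% of the transcripts above 4.5 in more than 1 number. Replicate 1 was then higher in 23 of the 41 genes, against 6.68% of those transcripts, and replicate 2 was lower in 16, against 4.69%. The contrasts of the 3 replicate numbers share all 12 arrays and are not independent of each other. The count in replicate 1 was 20 without the array INT-767 replicate 1 and 28 without FFA+INT-767 replicate 1, and that in replicate 2 was 10 without INT-767 replicate 2. Among the 25 genes with a mean over 6, 14 were called higher in replicate 1. No share of transcripts with such a mean stands beside this count, so it is not set against a background. In RNA of a whole culture, fewer cells of a type and less RNA per cell cannot be told apart.

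Other cell markers were read beside these differences, and their part in them was not tested. The mean of 9 of 12 measured mesenchymal markers was 6.61 to 7.80 on replicate 1 arrays, 6.64 to 7.05 on replicate 2 and 6.84 to 7.54 on replicate 3. Of the 9, 4 were called higher in replicate 1 (Prrx1, Snai2, Zeb1 and Cdh2) and 1 lower (S100a4, with a difference of -0.67), and the median difference was 0.29. Cdh11, a cadherin of mesenchymal cells with the widest range of them, was 8.92, 5.59 and 7.86 in Media replicates 1, 2 and 3. The endothelial list had means of 5.45 to 5.96, 5.10 to 5.26 and 5.50 to 5.83 on arrays of replicates 1, 2 and 3. Of its 8 measured genes 4 had higher and 4 lower values in replicate 1, with a median of 0.06. Of these, 2 were called higher and 0 lower, and Kdr, 1 of the 2, was above 4.5 on replicate 1 arrays alone. Of all transcripts, 6.57% were called higher and 7.83% lower in replicate 1. Cd34, a sialomucin of endothelial and stromal progenitors with the widest range of the endothelial list, was 10.20, 6.96 and 9.31 in Media replicates 1, 2 and 3. The 4 stellate markers had means of 5.27 to 6.01, 5.07 to 5.39 and 5.44 to 5.55. Macrophage markers (2 of 7) and hepatocyte markers (3 of 5) had means of at most 5.44 on any array, whereas the 4 cholangiocyte markers had 6.62 to 7.19, from Krt19, a keratin of bile duct cells (8.73 to 10.21), and the transcription factor gene Sox9 (8.57 to 9.94), as Krt7 and Epcam stayed at or below 4.86 on every array.

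Values of a gene on 12 arrays are given below by treatment (first Media, then FFA, then INT-767, and last FFA+INT-767) within each replicate number, and differences are log2 differences between a replicate number and the mean of the other numbers. Among the fibrillar collagens 4 of 6 genes were higher in replicate 1. For this and the other counts by role in replicate 1, the share of all transcripts called higher was 6.57%. Col1a1, the major chain of type I collagen, was 10.53, 9.93, 9.90 and 9.60 in replicate 1, 9.28, 9.02, 8.21 and 8.54 in replicate 2, and 8.64, 8.50, 8.23 and 8.36 in replicate 3. All 4 replicate 1 arrays lay above all others, by a difference of 1.40 (standard error 0.12, adjusted p = 7e-04), and replicate 3 was lower by a difference of -0.95 (standard error 0.12, adjusted p = 0.0036). Col3a1, the chain of type III collagen, was 7.69, 6.23, 5.91 and 5.33 in replicate 1, 4.99, 4.98, 4.82 and 4.72 in replicate 2, and 4.67, 4.87, 4.80 and 4.52 in replicate 3. Its values outside replicate 1 stayed between 4.52 and 4.99, near the detection limit, and replicate 1 differed by 1.49 (standard error 0.28, adjusted p = 0.012). Of the chains of type V collagen, which regulates fibril diameter, Col5a1 was 6.29, 5.87, 5.75 and 5.40 in replicate 1, 5.38, 5.51, 5.34 and 5.26 in replicate 2, and 5.64, 5.55, 5.42 and 5.36 in replicate 3. Apart from FFA+INT-767 replicate 1, the replicate 1 arrays lay above all others, and the difference was 0.39 (standard error 0.10, adjusted p = 0.032). Col5a2 was 6.40, 6.20, 6.03 and 5.66 in replicate 1, 5.21, 5.11, 5.14 and 5.01 in replicate 2, and 5.56, 5.23, 5.16 and 5.22 in replicate 3. All 4 replicate 1 arrays lay above the other 8, with 0.87 (standard error 0.09, adjusted p = 0.0013) in replicate 1 and -0.57 (standard error 0.09, adjusted p = 0.007) in replicate 2, and Col5a3 had 0.03 in replicate 1 and was not called. Col1a2, the other chain of type I collagen, was 6.98 on the array Media replicate 1 and 4.37 to 5.25 on the other 11. Its difference of 1.0 (standard error 0.29) was not called (adjusted p = 0.055), and another transcript of Col1a2 differed by 0.88.

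In the basement membrane group 3 of 8 genes were higher in replicate 1, and the chains of type IV collagen were not among them. Lama4, a laminin chain of vessel walls, was 7.95, 7.30, 6.66 and 5.87 in replicate 1, 5.38, 5.42, 4.87 and 5.11 in replicate 2, and 5.12, 4.81, 4.71 and 4.72 in replicate 3. Replicate 1 lay above all other arrays, by 1.93 (standard error 0.22, adjusted p = 0.0019), and replicate 3 was lower, with a difference of -1.23 (standard error 0.22, adjusted p = 0.012, or 0.058 without Media replicate 3). Col15a1, a basement membrane collagen of stroma and vessels, was 7.83, 6.76, 6.82 and 5.48 in replicate 1, 5.10, 5.38, 4.77 and 4.99 in replicate 2, and 5.58, 5.12, 5.27 and 5.16 in replicate 3. In replicate 1 the difference was 1.55 (standard error 0.27, adjusted p = 0.0089), and only FFA+INT-767 replicate 1 overlapped with arrays of the other numbers. The laminin chain gene Lamb1 was 9.27, 8.97, 8.78 and 8.54 in replicate 1, 8.65, 8.74, 8.53 and 8.69 in replicate 2, and 7.95, 8.07, 7.73 and 7.95 in replicate 3. Its replicate 3 arrays lay below all others, with -0.84 (standard error 0.10, adjusted p = 0.003), while replicates 1 and 2 overlapped and replicate 1 had 0.60 (standard error 0.10, adjusted p = 0.008). Col4a5, a minor type IV chain, was 6.16, 6.32, 6.29 and 6.25 in replicate 1, 5.94, 6.0, 5.83 and 6.04 in replicate 2, and 6.84, 6.64, 6.88 and 6.51 in replicate 3. Here replicate 3 was the high number (0.61, standard error 0.09, adjusted p = 0.0053), replicate 2 the low one (-0.53, standard error 0.09, adjusted p = 0.0078), and replicate 1 had -0.08. The major type IV chains Col4a1 and Col4a2 had 0.39 and 0.26 in replicate 1 and were not called there. Col4a1 was 6.43, 6.59, 6.16 and 6.32 in replicate 1, 5.64, 5.67, 5.94 and 5.95 in replicate 2, and 6.14, 6.43, 5.78 and 6.30 in replicate 3. Its replicate 2 arrays overlapped with replicate 3 but not with replicate 1, and the difference of replicate 2 was -0.47 (standard error 0.12, adjusted p = 0.042). Lamc1, the common laminin gamma chain, was 10.15, 9.85, 9.88 and 9.84 in replicate 1, 9.60, 9.63, 9.57 and 9.73 in replicate 2, and 10.05, 9.86, 9.81 and 9.82 in replicate 3. Each replicate 2 array lay below the other 8, with a difference of -0.27 (standard error 0.07, adjusted p = 0.042). Col18a1, the precursor of endostatin, spanned 4.67 to 5.05 over the 12 arrays and was called in no contrast.

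Other collagens were higher in replicate 1 in 4 of 5 genes. Col8a1, a short-chain collagen of vessel walls, was 7.78, 6.0, 5.81 and 4.94 in replicate 1, 4.54, 4.65, 4.28 and 4.16 in replicate 2, and 5.08, 4.77, 4.75 and 4.24 in replicate 3. It reached 7.78 in Media replicate 1 and 4.16 to 5.08 on the 8 arrays of the other numbers, a difference of 1.57 (standard error 0.29, adjusted p = 0.011), or 1.11 without Media replicate 1. Col12a1, a collagen on the surface of fibrils, was 7.23, 6.89, 6.73 and 6.0 in replicate 1, 5.14, 5.17, 4.59 and 4.94 in replicate 2, and 6.07, 6.07, 5.76 and 5.76 in replicate 3. The 3 numbers were ordered 1, 3 and 2 in each treatment, with 1.27 (standard error 0.14, adjusted p = 0.0017) in replicate 1 and -1.35 (standard error 0.14, adjusted p = 0.0015) in replicate 2. Of the type VI collagen chains, which form beaded microfibrils, Col6a1 was 10.57, 9.93, 9.97 and 9.32 in replicate 1, 8.98, 8.95, 8.28 and 8.61 in replicate 2, and 9.78, 9.40, 9.22 and 9.39 in replicate 3. All replicate 2 arrays lay below the others, with -0.99 (standard error 0.14, adjusted p = 0.0048), and replicate 1 had 0.87 (standard error 0.14, adjusted p = 0.0068) and was highest in each treatment but FFA+INT-767. Col6a2 was 9.32, 8.42, 8.25 and 7.31 in replicate 1, 7.12, 7.05, 6.59 and 6.53 in replicate 2, and 7.65, 7.34, 7.15 and 7.03 in replicate 3. In each treatment the order of the numbers was 1, 3 and 2, with 1.27 (standard error 0.18, adjusted p = 0.0038) in replicate 1 and -0.99 (standard error 0.18, adjusted p = 0.011) in replicate 2. Without INT-767 replicate 2 the adjusted p of Col6a2 in replicate 2 was 0.053. Col6a3 lay between 4.39 and 5.08 and was not called. Another transcript of Col6a1 had 0.51 in replicate 1.

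Dcn, which encodes decorin, a small proteoglycan that binds collagen fibrils and TGF-beta, had the widest range of the list over the 12 arrays. It was 10.12, 9.50, 9.48 and 8.63 in replicate 1, 5.81, 5.73, 5.20 and 4.97 in replicate 2, and 8.83, 8.26, 8.38 and 8.43 in replicate 3. No array of one number overlapped with an array of another, apart from FFA+INT-767 replicate 1, which lay below Media replicate 3. Replicate 1 differed by 2.48 (standard error 0.16, adjusted p = 0.00023), replicate 2 by -3.53 (standard error 0.16, adjusted p = 4.2e-05) and replicate 3 by 1.04 (standard error 0.16, adjusted p = 0.0066). Replicate number held 95.1% of its variance. Bgn, which encodes the related proteoglycan biglycan, was 12.86, 12.36, 12.50 and 12.33 in replicate 1, 12.52, 12.39, 12.07 and 12.07 in replicate 2, and 12.10, 11.79, 11.83 and 11.85 in replicate 3. In each treatment replicate 3 was the lowest number, with a difference of -0.50 (standard error 0.08, adjusted p = 0.0071), and replicate 1 had 0.43 (standard error 0.08, adjusted p = 0.0091). Its other transcript had 0.25 in replicate 1.

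The lysyl oxidase gene Lox, whose product cross-links collagen and elastin, was 10.22, 9.49, 9.15 and 8.08 in replicate 1, 7.06, 7.24, 6.79 and 6.91 in replicate 2, and 9.06, 8.75, 7.95 and 8.09 in replicate 3. Every replicate 2 array lay below every other array, and the differences were 1.51 (standard error 0.23, adjusted p = 0.0051) in replicate 1 and -1.85 (standard error 0.23, adjusted p = 0.0025) in replicate 2. Loxl1 was 4.73, 4.51, 4.43 and 4.30 in replicate 1, 3.78, 3.98, 3.76 and 3.72 in replicate 2, and 4.18, 3.88, 3.93 and 4.11 in replicate 3. It lay above 4.5 on 2 replicate 1 arrays alone, so its difference of 0.58 in replicate 1 is given without a test.

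Of the 8 glycoprotein genes 4 were counted as higher in replicate 1, with differences of 0.33 to 0.53. Thbs2 is 1 of these 4, although it is in the table only through replicate 1. Fbln1, which encodes the elastic fibre protein fibulin-1, was 6.37, 6.07, 6.32 and 5.83 in replicate 1, 5.98, 5.95, 5.68 and 5.82 in replicate 2, and 5.50, 5.38, 5.44 and 5.52 in replicate 3. Its replicate 3 arrays lay below all others, with -0.54 (standard error 0.10, adjusted p = 0.012), and replicate 1 had 0.49 (standard error 0.10, adjusted p = 0.015). Fbln2, which encodes fibulin-2, was 11.32, 10.94, 10.96 and 10.70 in replicate 1, 10.77, 10.64, 10.44 and 10.42 in replicate 2, and 10.63, 10.58, 10.46 and 10.52 in replicate 3. Replicate 1 was the highest number in each treatment, with 0.42 (standard error 0.07, adjusted p = 0.009). Sparc was 11.68, 11.37, 11.43 and 11.32 in replicate 1, 11.15, 10.99, 10.91 and 10.93 in replicate 2, and 11.26, 11.31, 11.20 and 11.23 in replicate 3. The 3 numbers did not overlap in Sparc, with 0.33 (standard error 0.06, adjusted p = 0.013) in replicate 1 and -0.36 (standard error 0.06, adjusted p = 0.011) in replicate 2. Thbs2 was 5.18, 4.79, 4.65 and 4.19 in replicate 1, 4.18, 4.20, 4.13 and 4.18 in replicate 2, and 4.23, 4.01, 4.24 and 4.19 in replicate 3. Outside replicate 1 it stayed at or below 4.24, so its difference of 0.53 in replicate 1 is given without a test. Tnc, which encodes tenascin-C, a matrix protein of injured tissue, was 6.55, 5.36, 5.37 and 4.59 in replicate 1, 4.51, 4.59, 4.45 and 4.41 in replicate 2, and 5.92, 5.44, 5.04 and 4.68 in replicate 3. It was lower in replicate 2 (-0.88, standard error 0.21, adjusted p = 0.032), and replicate 1 with 0.59 was not called. Thbs1, an activator of latent TGF-beta, was 10.51, 9.92, 10 and 9.49 in replicate 1, 9.65, 9.63, 9.52 and 9.50 in replicate 2, and 11.52, 10.42, 9.72 and 9.96 in replicate 3. Its highest value was in Media replicate 3, not in replicate 1, and no contrast was called. Fn1 and Mgp, the matrix Gla protein that inhibits calcification, had 0.14 and -0.04 in replicate 1 and were not called.

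Mmp2, a gelatinase, was 9.50, 8.50, 8.61 and 7.53 in replicate 1, 7.23, 7.04, 5.87 and 6.03 in replicate 2, and 7.26, 7.03, 6.41 and 6.57 in replicate 3. It was higher in replicate 1 by 1.85 (standard error 0.20, adjusted p = 0.0015) and lower in replicate 2, with a difference of -1.13 (standard error 0.20, adjusted p = 0.01). All 4 replicate 1 arrays lay above the other 8, and no other gene of the protease group was called in replicate 1. Timp3, an inhibitor bound to the matrix, was 9.56, 8.50, 8.13 and 7.41 in replicate 1, 7.45, 7.54, 6.99 and 6.98 in replicate 2, and 8.91, 7.82, 7.34 and 7.88 in replicate 3. It was lower in replicate 2, with a difference of -0.96 (standard error 0.23, adjusted p = 0.031), a call that was lost without 8 of the 12 arrays in turn (0.081 without INT-767 replicate 2). Timp1, a secreted inhibitor, was 9.49, 9.25, 9.15 and 9.19 in replicate 1, 9.50, 9.51, 9.47 and 9.27 in replicate 2, and 9.10, 9.01, 8.91 and 8.97 in replicate 3. It was the only gene of the list called higher in replicate 2, by 0.31 (standard error 0.06, adjusted p = 0.02), and was lower in replicate 3, with a difference of -0.36 (standard error 0.06, adjusted p = 0.012). Mmp14, a membrane-bound activator of Mmp2, had 0.23, Timp2 0.12 and Mmp3 0.27 in replicate 1, none called.

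Among the stromal receptors and cytoskeletal genes 5 of 7 were higher in replicate 1. Pdgfra, the PDGF receptor alpha chain, was 9.56, 9.16, 9.40 and 8.63 in replicate 1, 5.63, 6.12, 5.30 and 6.24 in replicate 2, and 7.32, 6.27, 6.62 and 6.47 in replicate 3. The replicate 1 arrays lay between 8.63 and 9.56 and the other 8 between 5.30 and 7.32, with 2.94 (standard error 0.25, adjusted p = 6e-04) in replicate 1 and -2.11 (standard error 0.25, adjusted p = 0.0021) in replicate 2. Acta2, which encodes smooth muscle actin, was 11.52, 10.73, 11.06 and 10.16 in replicate 1, 9.13, 9.0, 7.99 and 7.88 in replicate 2, and 9.24, 8.91, 8.62 and 9.16 in replicate 3. In each treatment replicate 1 was highest, by 2.12 (standard error 0.22, adjusted p = 0.0014), and replicate 2 was lower, with a difference of -1.42 (standard error 0.22, adjusted p = 0.0067). Pdgfrb, the PDGF receptor beta chain, was 9.06, 7.51, 8.19 and 6.56 in replicate 1, 6.65, 6.48, 5.15 and 5.55 in replicate 2, and 6.97, 6.05, 6.46 and 5.35 in replicate 3. Replicate 1 was highest in each treatment, although FFA+INT-767 replicate 1 lay below Media replicates 2 and 3. It had 1.75 (standard error 0.28, adjusted p = 0.0064) and replicate 2 -1.06 (standard error 0.28, adjusted p = 0.047), and the latter call was lost without 10 of the 12 arrays in turn (adjusted p = 0.13 without Media replicate 2). Tagln, an actin-binding protein of smooth muscle, was 7.83, 7.23, 7.02 and 6.03 in replicate 1, 5.74, 5.47, 5.55 and 5.31 in replicate 2, and 5.67, 6.07, 5.81 and 6.37 in replicate 3. Apart from FFA+INT-767 replicate 1, its replicate 1 arrays lay above all others, and the difference was 1.28 (standard error 0.27, adjusted p = 0.017). The muscle intermediate filament gene Des was 6.74, 6.32, 6.02 and 5.71 in replicate 1, 5.23, 5.28, 5.30 and 5.50 in replicate 2, and 5.08, 5.12, 4.85 and 4.92 in replicate 3. No array of one number overlapped with another number in Des, with 1.04 (standard error 0.15, adjusted p = 0.0044) in replicate 1 and -0.77 (standard error 0.15, adjusted p = 0.016) in replicate 3, or for the latter an adjusted p of 0.067 without Media replicate 3. Vim with 0.05 and Thy1 with 0.22 in replicate 1 were not called.

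**Figure D2:**
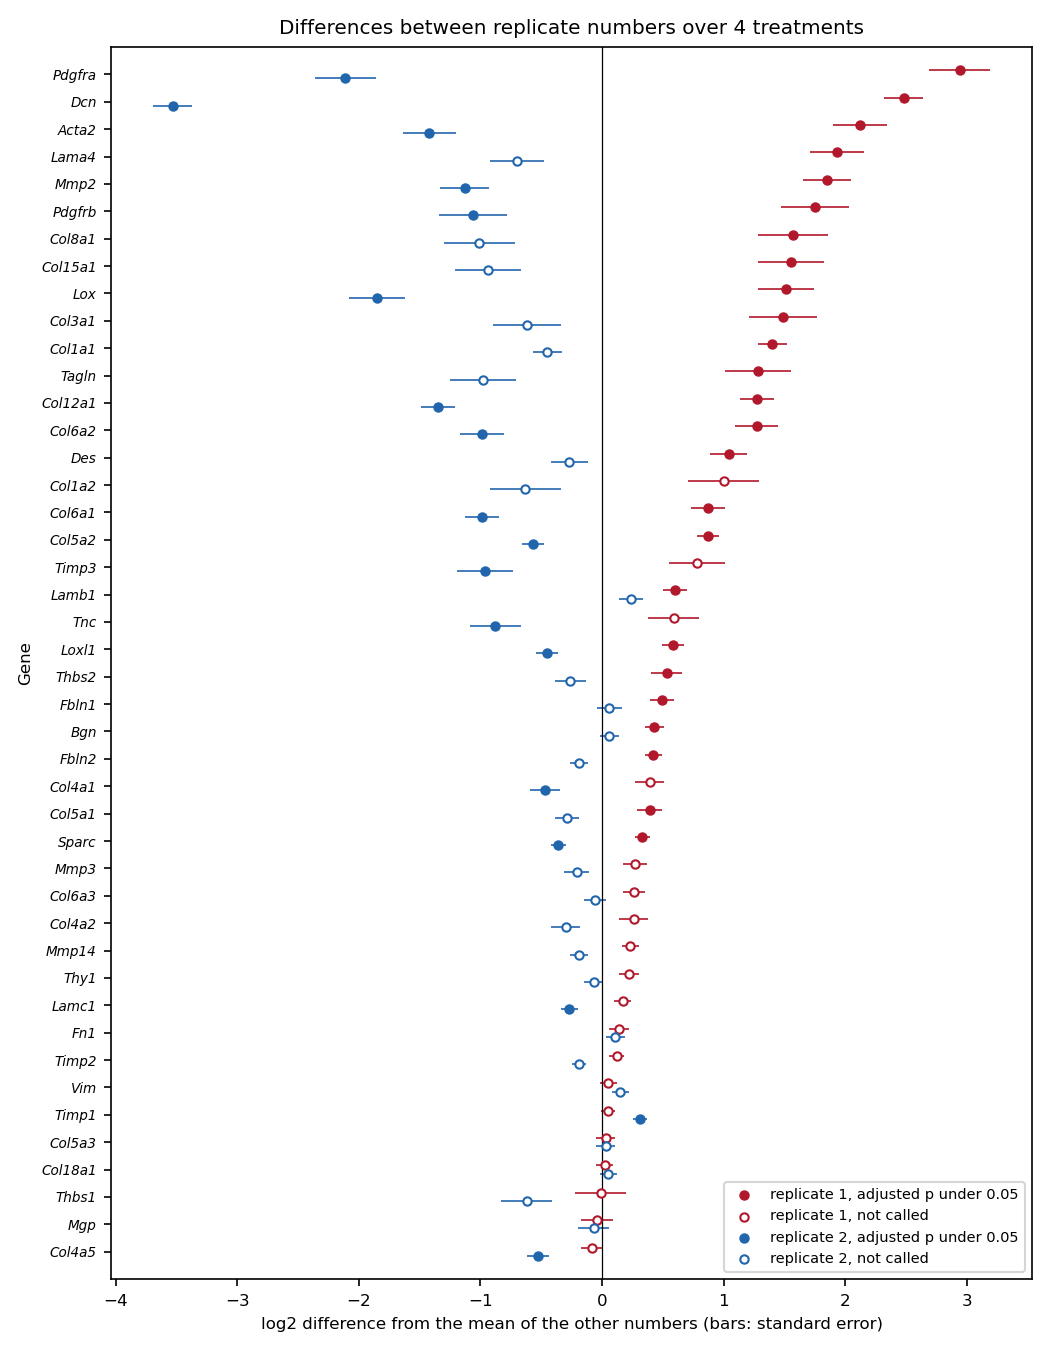
Points give the log2 difference of replicate 1 (red) and replicate 2 (blue) from the mean of the other numbers for each of 44 genes, with bars of 1 standard error, and filled points have an adjusted p under 0.05, which for Loxl1 and Thbs2 in red is no test, as they are in the table only through replicate 1. Pdgfra, Dcn and Acta2 lie farthest to the right in red with 2.94, 2.48 and 2.12, and Dcn farthest to the left in blue with -3.53.

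In a 2-way layout of replicate number and treatment, the median share of a gene's variance that went with replicate number was 64.4%, against 33.2% over all transcripts. FFA took 4.28% (3.37% over all), INT-767 10.3% (5.63%), their interaction 0.318% (3.12%) and the rest 16.7% (36.7%). Replicate number took over 50% in 29 of 44 genes and in 31.4% of all transcripts. Beside Dcn the share was 93.6% for Pdgfra, 90% for Col4a5 and 84.6% for Col12a1. At the other end it was 5.38% for Col5a3, 6.32% for Mgp and 10.4% for Col18a1, whose ranges over the 12 arrays were 0.37, 0.76 and 0.38.

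INT-767 against Media gave lower values for most of the genes, none of which passed the test. The median log2 difference was -0.29 over 44 genes and -0.015 over all transcripts. Values were lower in INT-767 for 30 genes within all 3 replicate numbers, against 17.8% of all transcripts. They included Mmp2, with -0.88, -1.36 and -0.85 in replicates 1, 2 and 3, Timp3 (-1.42, -0.46 and -1.57) and Pdgfrb (-0.86, -1.50 and -0.51). Col1a1 (-0.63, -1.08 and -0.41), Col6a1 (-0.59, -0.70 and -0.56), Acta2 (-0.47, -1.14 and -0.62), Dcn (-0.64, -0.61 and -0.44) and Lox (-1.07, -0.27 and -1.11) did so too. By role, the medians were -0.62 for the other collagens, -0.44 for the fibrillar collagens and -0.14 for the basement membrane genes, where Col4a1, Col4a2 and Col4a5 had -0.11, 0.10 and 0.02.

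By limma, 0 of 44 genes and 0% of 25144 transcripts had an adjusted p under 0.05 for INT-767 against Media, and 0 genes had an unadjusted p under 0.05, against 2.92% of the transcripts. In no gene were all 3 INT-767 arrays below or above all 3 Media arrays, where 4.05% of the transcripts were below and 3.03% above. With the replicate number as a block 17 genes, all lower, had an unadjusted p under 0.05 (5.10% of the transcripts in that direction) and still 0 passed adjustment. In that fit Mmp2 had -1.03 (standard error 0.14, adjusted p = 0.36), Col6a1 -0.62 (standard error 0.09, adjusted p = 0.41), Dcn -0.57 (standard error 0.10, adjusted p = 0.45), Timp3 -1.15 (standard error 0.24, adjusted p = 0.51) and Pdgfrb -0.96 (standard error 0.21, adjusted p = 0.51). The median was -0.01 without Media replicate 1 and -0.22 without both replicate 1 arrays. Of the 9 mesenchymal markers 8 were lower in INT-767, with a median of -0.39 and 5 at an unadjusted p under 0.05 with the block, and their mean was 6.84 to 7.80 on Media arrays and 6.65 to 7.13 on INT-767 arrays. The endothelial markers had a median of -0.15 with 5 of 8 lower, and the part of these cell markers in the result was not tested.

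FFA against Media gave lower values for most of the genes too, and again none passed the test. The 3 Media arrays are the same as in the comparison above, so the 2 sets of differences are not independent. The median was -0.19 over 43 genes in the fit, and 0.004 over all transcripts. Within replicate 1, 41 of 44 genes were lower in FFA (53.7% of all transcripts), with a median of -0.391. Within replicate 2 there were 22 (48.1%) with a median of -0.001, and within replicate 3 there were 34 (45.4%) with a median of -0.195. Of these, 17 genes were lower in all 3 numbers (12.9% of all transcripts), among them Pdgfrb (-1.54, -0.17 and -0.92), Thbs1 (-0.60, -0.02 and -1.10), Dcn (-0.62, -0.08 and -0.56) and Col1a1 (-0.61, -0.27 and -0.14). Col4a1 was higher in all 3, by 0.15, 0.03 and 0.30. The test called 0 genes (0% of 24838 transcripts), with 0 at an unadjusted p under 0.05 (2.68% of transcripts) and 0 genes without overlap of the groups (3.41% of transcripts lower, 3.60% higher). With the replicate block 7 genes, all lower, had an unadjusted p under 0.05 (2.86% of transcripts in that direction) and 0 passed adjustment, where Pdgfrb had -0.88 (standard error 0.27, adjusted p = 0.79) and Timp3 -0.69 (standard error 0.26, adjusted p = 0.79). The other 5 were Dcn, Thbs1, Acta2, Col1a1 and Bgn. Leaving out the pair of replicate 1 arrays gave a median of -0.09, whereas leaving out its Media array alone gave 0.13 and its FFA array alone -0.42. Of the 9 mesenchymal markers 8 were lower in FFA, with a median of -0.20, and their part in the result was not tested.

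When INT-767 was added to FFA, the differences of Pdgfrb were -0.96, -0.93 and -0.71 in replicates 1, 2 and 3, those of Mmp2 -0.97, -1.01 and -0.46, and those of Lox -1.41, -0.33 and -0.65. In all, 20 genes were lower in the 3 numbers (20.3% of all transcripts), and the median was -0.19. No gene passed the test, with 0% of 24824 transcripts called. Tnc, with -0.58 (standard error 0.24, adjusted p = 0.96), was the only gene at an unadjusted p under 0.05, against 4.73% of transcripts. The groups did not overlap in Col5a1 and Mgp, lower in FFA+INT-767 (background 4.60%). They did not overlap in Col5a3 either (higher, background 5.17%), but among these arrays it was above 4.5 on FFA+INT-767 replicate 3 alone and so entered the fit through the group in which it was high. With the replicate block 11 genes, all lower, had an unadjusted p under 0.05 (6.30% of transcripts in that direction) and 0 passed adjustment, with Pdgfrb at -0.86 (standard error 0.09, adjusted p = 0.20) and Mmp2 at -0.81 (standard error 0.14, adjusted p = 0.25).

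When FFA was added to INT-767, the number of genes with lower values depended on the replicate number. In replicate 1, 40 of 44 genes were lower in FFA+INT-767 (46.9% of all transcripts), with a median of -0.337. In replicates 2 and 3 there were 20 and 13 (49.5% and 49.6%), with medians of 0.016 and 0.047. With the largest differences in replicate 1, Pdgfrb differed by -1.64, 0.40 and -1.11 and Col15a1 by -1.35, 0.22 and -0.10 in replicates 1, 2 and 3. Col8a1 was lower in all 3 numbers (-0.87, -0.12 and -0.51), 1 of 7 such genes (11.5% of all transcripts). The test called 0 genes and 0% of 25041 transcripts, and the median was -0.09 over 43 genes. At an unadjusted p under 0.05 there were 0 genes (2.14% of transcripts), or with the replicate block 1, Col8a1, with -0.50 (standard error 0.17, adjusted p = 0.97). The groups did not overlap in 1 gene, Col6a3, lower (background 2.21%).

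**Figure D3:**
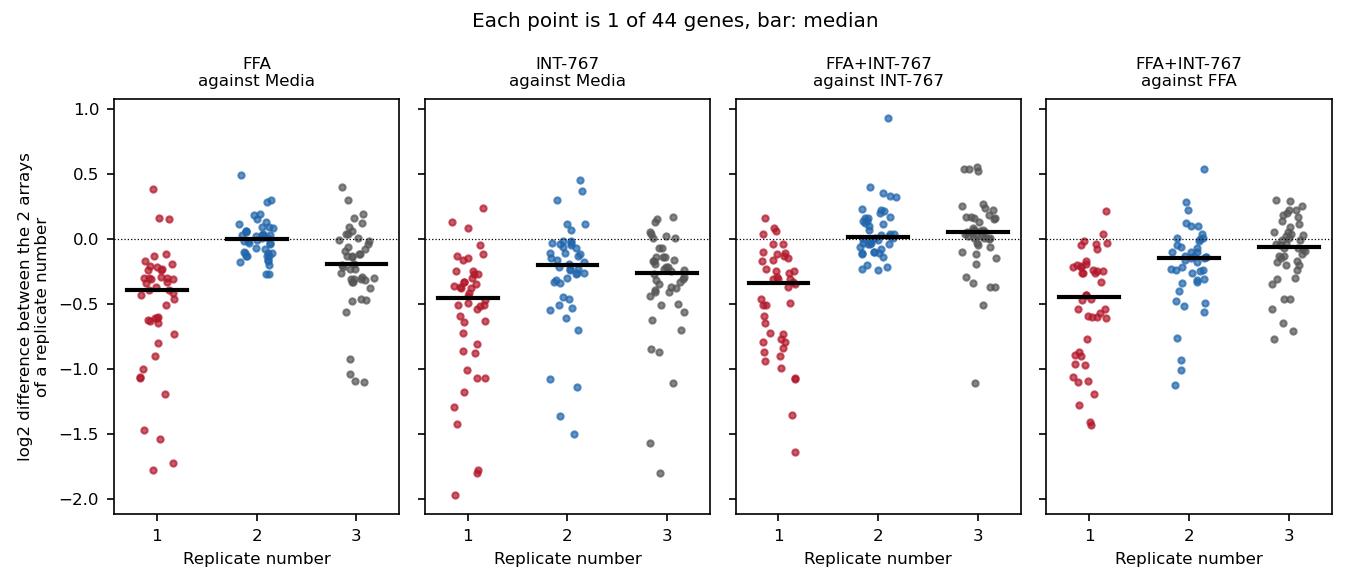
Each point is 1 of 44 genes and gives the log2 difference between the 2 arrays of a replicate number in 4 comparisons, with a bar at the median. Medians lie at -0.391, -0.001 and -0.195 in replicates 1, 2 and 3 for FFA against Media and at -0.452, -0.205 and -0.257 for INT-767 against Media, and in all 4 comparisons the lowest median is that of replicate 1.

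In models of all 12 arrays that held both treatments, INT-767 gave a median of -0.24 and FFA of -0.15, with 0 genes called for either and 0% of 26076 transcripts. Timp3, with -0.84 for INT-767 (standard error 0.35, adjusted p = 0.78), alone had an unadjusted p under 0.05 (6.27% of transcripts), and for FFA there were 0 genes (2.40%). With the replicate block 25 genes reached an unadjusted p under 0.05 for INT-767, all lower (8.01% of transcripts in that direction), and 6 for FFA, all lower (3.07%), and none passed adjustment. Among the genes the smallest adjusted p for INT-767 in that fit was that of Mmp2 at -0.92 (standard error 0.18, adjusted p = 0.15), followed by Lox at -0.81 (standard error 0.20, adjusted p = 0.16), Col6a2 at -0.67 (standard error 0.16, adjusted p = 0.16) and Col1a1 at -0.51 (standard error 0.12, adjusted p = 0.16). For FFA Pdgfrb had -0.83 (standard error 0.25, adjusted p = 0.80). The interaction had a median of 0.10, with 0 genes called and 0 at an unadjusted p under 0.05 (2.69% of transcripts).

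**Figure D4:**
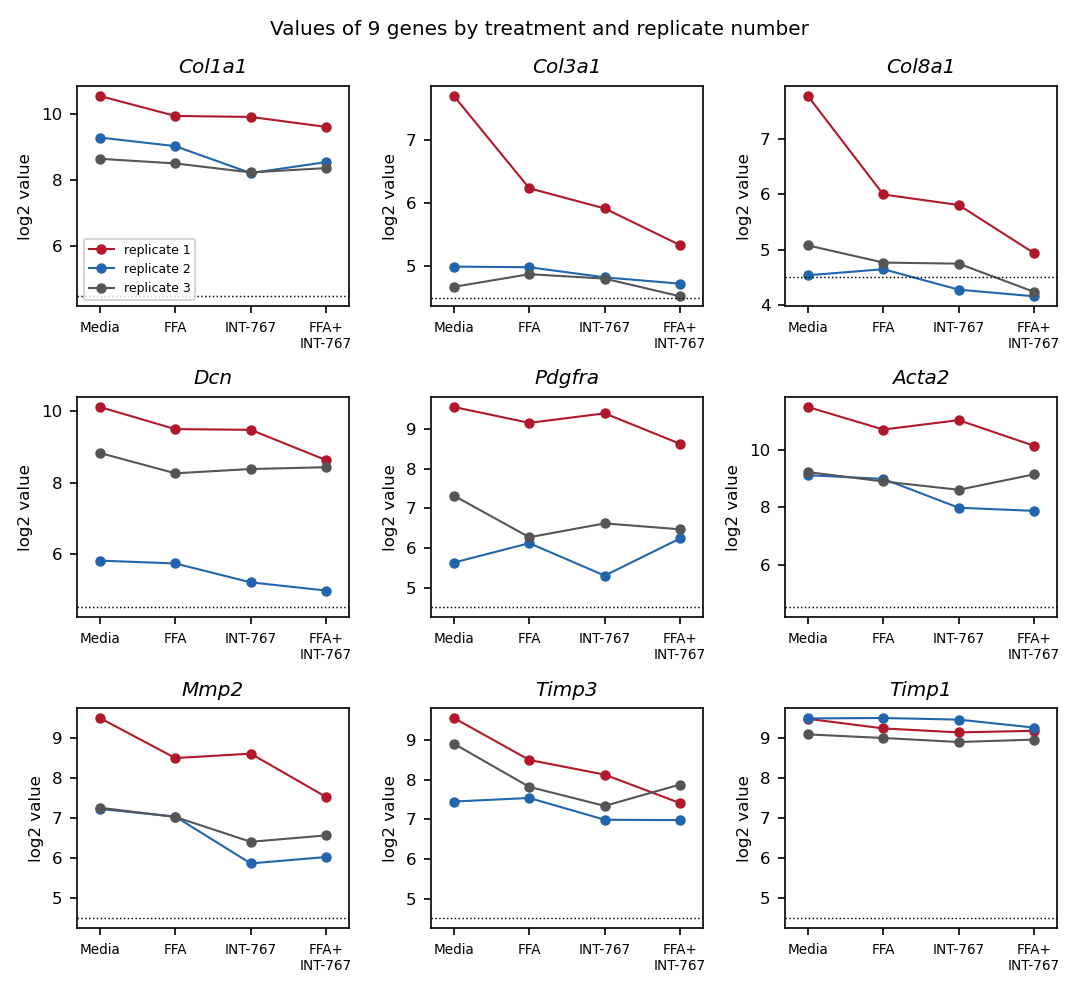
Lines join the log2 values of 1 replicate number over the 4 treatments for 9 genes, with the detection limit of 4.5 dotted, and each panel has its own scale. Col3a1 falls from 7.69 to 5.33 and Col8a1 from 7.78 to 4.94 along replicate 1, while Timp1 stays between 8.91 and 9.51 on all arrays.

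The excess of replicate 1 was largest in Media and smallest in FFA+INT-767 by its median over the genes. In Media, replicate 1 exceeded the mean of replicates 2 and 3 by a median of 0.87, and 20 genes exceeded it by over 1 (1.53% of all transcripts). In FFA the median was 0.56 with 16 genes over 1 (1.31%), in INT-767 it was 0.61 with 15 (1.27%), and in FFA+INT-767 it was 0.20 with 6 (0.997%). Along replicate 1, 38 of 44 genes were highest in Media and lowest in FFA+INT-767 (15.5% of all transcripts), whereas this order was found in 10 genes of replicate 2 (9.74%) and 7 of replicate 3 (11.9%). In replicate 1 Col3a1 was 7.69 in Media and 5.33 in FFA+INT-767, Col8a1 was 7.78 and 4.94, Mmp2 9.50 and 7.53 and Pdgfrb 9.06 and 6.56. Along the same arrays Pdgfra went from 9.56 to 8.63 and Col1a1 from 10.53 to 9.60. With 1 array for each treatment and number, a difference between numbers in the effect of a treatment could not be tested.

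Other genes of matrix biology, in lists chosen by name, were read in the same fits. Of 26 measured genes that process collagen, 9 were called higher and 0 lower in replicate 1 (all transcripts 6.57% and 7.83%), and 1 higher and 6 lower in replicate 2 (5.69% and 4.39%). P4ha1, a subunit of the prolyl hydroxylase that stabilizes the triple helix, had 0.80 (standard error 0.09, adjusted p = 0.0017) in replicate 1, and Plod2, a lysyl hydroxylase, 0.68 (standard error 0.13, adjusted p = 0.013). Pcolce2, an enhancer of procollagen cleavage, was higher in replicate 2 by 1.12 (standard error 0.16, adjusted p = 0.0049). Of 25 actin and contractile genes 10 were higher and 0 lower in replicate 1, among them the calponin gene Cnn2 with 0.86 (standard error 0.09, adjusted p = 0.0015). Of 23 other proteases and inhibitors, 9 were higher and 3 lower, with the metalloproteinase gene Mmp19 at 1.86 (standard error 0.18, adjusted p = 0.001), and 10 were lower in replicate 2, with Adamts9, a protease of versican, at -2.02 (standard error 0.18, adjusted p = 0.00071). Of 26 other matrix genes 10 were higher and 0 lower in replicate 1, among them the transglutaminase gene Tgm2 with 1.40 (standard error 0.11, adjusted p = 0.00048) and Vcan, which encodes versican, with 1.03 (standard error 0.11, adjusted p = 0.0015). Cnn1, Lama2 and Mfap2, counted here as higher, were above 4.5 on replicate 1 arrays alone.

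The genes that receive signals from matrix and from TGF-beta were called in both directions. Of 22 genes of the TGF-beta axis, 5 were higher and 3 lower in replicate 1, and 2 higher and 8 lower in replicate 2, where 6.57% and 7.83% of all transcripts were called higher and lower in replicate 1 and 5.69% and 4.39% in replicate 2. Tgfbi, a matrix protein induced by TGF-beta, had 1.64 (standard error 0.29, adjusted p = 0.0084) and the ligand gene Tgfb3 0.91 (standard error 0.11, adjusted p = 0.0021) in replicate 1, while the ligand gene Tgfb2 had -1.56 (standard error 0.17, adjusted p = 0.0017) in replicate 2. Of 21 matrix receptors 3 were higher and 2 lower in replicate 1 against the same shares, where Itga6, an integrin chain of laminin receptors, was lower, with a difference of -1.21 (standard error 0.08, adjusted p = 0.00023) and Itga1, of a collagen receptor, was higher by 0.92 (standard error 0.10, adjusted p = 0.0015). No gene of these 6 lists was called in any treatment comparison. For INT-767 against Media their medians were between -0.28 for the TGF-beta axis and -0.03 for the matrix receptors.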

How the data were processed

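TSEC cultures of 4 treatments were profiled on Mouse Gene 2.0 ST arrays, 3 per treatment, and all 12 arrays were used. The authors made the deposited log2 values in Partek 6.6 and kept transcripts above 4.5 on at least 1 array. The methods call the normalization GC-RMA, whereas RMA stands in the notes of the submitters, and no genome build is given in the sources used here. Of 26076 transcripts, 14317 carry 1 gene symbol in GEO's platform annotation, 1397 several and 10362 none, and genes are named from the first kind.

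R 4.3.3 and limma 3.58.1 were applied to these values as they stand. Each pair of treatments was compared on its 6 arrays, over transcripts above 4.5 on at least 1 of them, without a block. The methods name an ANOVA over all present transcripts and state no replicate term. Each treatment was also tested over 12 arrays beside the other, and the interaction and the replicate number beside the 4 treatment means. A gene was called at a Benjamini-Hochberg adjusted p under 0.05 over all transcripts in the fit. Deviations from the treatment means correlated between arrays of the same replicate number in all 18 pairs (0.2 to 0.54), so the number was taken to pair the arrays, and a fit with it as a block is given beside each treatment result. The script was tested on simulated data. The number of arrays limits the precision.

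The genes, the marker and pathway lists and the tests were chosen with earlier results of these data known. Every measured gene is named. Values by array are given for genes called in a contrast, and for Thbs1, added after its values were seen. Genes with no overlap between groups and an unadjusted p under 0.05 were to be added too, and there were none. Up to 4 genes of smallest p are taken from each other list. Alternatives were other filters on low values, scaling by array medians or by renewed quantile normalization, a prior with intensity trend, weights for arrays, the unmoderated test of the methods, averaged transcripts of a gene, 1 fit for all 12 arrays, the replicate block and each array left out in turn. Leaving out the replicate 1 arrays or the Media arrays and counting only genes with a mean over 6 were added after the data were seen. Protein and cell assays of the study were not analysed here.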

Additional observations from a re-analysis of the deposited data

How the results depend on the processing

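No gene of the list was called for a treatment under any alternative, so the treatment results rest on medians and directions within 3 numbers. Each pairwise comparison holds 1 array for each treatment and number, so the replicate block cannot change its differences. The medians of -0.19, -0.29, -0.09 and -0.19 are therefore the same in both fits by design and test nothing. Only the standard errors and the counts at an unadjusted p under 0.05 could move, and the counts are given beside each result. With array weights the median of INT-767 against Media was -0.43 and that of the interaction 0.22. Counting only genes with a mean over 6, which leaves 25 of 44, replicate number was called in 18 and replicate 1 in 14. No share of transcripts with a mean over 6 stands beside these counts, so they are not set against a background. Over the alternatives other than leaving out an array the median of replicate 1 was 0.42 to 0.56. Without the replicate 1 arrays, an alternative chosen after seeing the data, the medians were -0.09 for FFA against Media, -0.22 for INT-767 against Media, 0.05 for FFA+INT-767 against INT-767 and -0.14 for FFA+INT-767 against FFA.

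Leaving out each array in turn moved the median of FFA against Media between -0.42 and 0.13, of INT-767 against Media between -0.54 and -0.01, of FFA+INT-767 against INT-767 between -0.23 and 0.12, of FFA+INT-767 against FFA between -0.33 and -0.05, of FFA over 12 arrays between -0.21 and -0.01, of INT-767 over 12 arrays between -0.34 and -0.12 and of the interaction between -0.15 and 0.33. Genes called by replicate number were 22 to 30, in replicate 1 20 to 28, in replicate 2 10 to 23 and in replicate 3 6 to 12. These counts too stand without a share of all transcripts. Differences of FFA against Media ranged from -1.64 to 0.63 for Dcn, -1.01 to 0.36 for Acta2 and -0.76 to 0.19 for Col1a1, and those of INT-767 against Media from -1.66 to 0.04 for Acta2 and -1.36 to 0.16 for Lama4. Col1a1 in FFA+INT-767 against FFA ranged from -0.70 to 0.07 and Dcn for FFA over 12 arrays from -0.94 to 0.14. In these fits without a block, leaving out 1 array leaves its replicate number uneven between the groups compared. Differences between replicate numbers then enter the treatment difference. Within replicates 1, 2 and 3, Dcn differed by -0.62, -0.08 and -0.56 for FFA against Media. What else enters these shifts was not tested. Without the block, the spread between replicate numbers is part of the standard error of a treatment difference. Whether this spread limited the calls was not tested. The standard error of Dcn in INT-767 against Media was 1.39 without the block and 0.10 with it, and 0 genes passed adjustment in either fit.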
